A study of Bos taurus with 12 samples.

Results

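The 45 genes described here are genes of DNA replication and mitosis: the factors that license and fire replication origins, the proteins of the replication fork, the enzymes that supply nucleotides, and the cyclins, kinases, checkpoint and kinetochore proteins of cell division. They were taken from a list of gene symbols, and each gene was read from its brightest probe set by the mean over all 12 arrays. Of the 45 listed genes 36 had a probe set annotated to that symbol alone, among 9155 genes with such a probe set on the array. The 36 genes had 48 probe sets, 25 genes with 1 and 11 genes with several. The other 9 genes (MCM2, GINS1, GINS2, TOP2A, SMC2, TTK, NUF2, CENPE and KIF11) had none and are not analysed here.

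Gene expression was measured in cattle, in elongated conceptuses recovered on day 16 of gestation and in cultured fibroblasts. The SCNT conceptuses came from somatic cell nuclear transfer, in which a fibroblast nucleus is placed in an enucleated oocyte. The IVP conceptuses came from fertilization and culture in vitro, and the AI conceptuses from artificial insemination and development in vivo. FB are the fibroblasts that served as nuclear donors. Each group had 3 arrays. Embryos of the SCNT, IVP and AI groups were placed in synchronized recipient cows as day 7 blastocysts, and the design took conceptuses of similar length, so a group holds only embryos that had grown to that length. Breed, sex, donor animal, the passage or cycling state of the fibroblasts, and whether an array held 1 conceptus or a pool are not stated in the labels. What p-values measure is therefore the variation among the 3 arrays of a label, and part or all of it may be technical.

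Before a cell divides, the origin recognition complex and CDC6 load the MCM ring at origins, and the ring later unwinds DNA ahead of the polymerases. PCNA, loaded by replication factor C, holds the polymerases on DNA, while ribonucleotide reductase, thymidylate synthase and thymidine kinase supply deoxynucleotides. CDK1 with its cyclins drives entry into mitosis, Aurora and Polo kinases build the spindle, and the checkpoint holds back chromosome separation until kinetochores are attached. Transcripts of many of these genes are scarce in resting cells, and the elongating trophoblast of ruminants is a rapidly growing tissue.

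The deposited values are log2 signals with a floor near 2.42, and a probe set was tested when it exceeded log2 4 on at least 3 arrays. Depending on the array, 6359 to 6643 probe sets exceeded log2 4. Within groups, arrays correlated at 0.978 or higher over all probe sets. Trophoblast markers above log2 4 numbered 13 of 17 on every SCNT array, 13 on every IVP array, 14 on every AI array and 0 on every FB array. Fibroblast markers above log2 4 numbered 3 of 12 on every SCNT, IVP and AI array and 10 of 12 on every FB array. The tissue field of the FB samples says elongated embryo, but their description and these markers are those of fibroblasts.

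Of the 36 genes 34 passed the filter. CDC45, a helicase partner at firing origins, did not, with 3.59, 3.54 and 3.63 in SCNT conceptuses, 3.66, 3.47 and 3.45 in IVP conceptuses, 3.34, 3.62 and 3.31 in AI conceptuses, and 2.60, 2.73 and 2.57 in FB. PRIM1, a primase subunit, lay at the floor on every array, from 2.42 to 2.44. SMC4 passed through its SCNT arrays, and 33 of the 34 genes passed with those arrays left out.

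**Figure D1:**
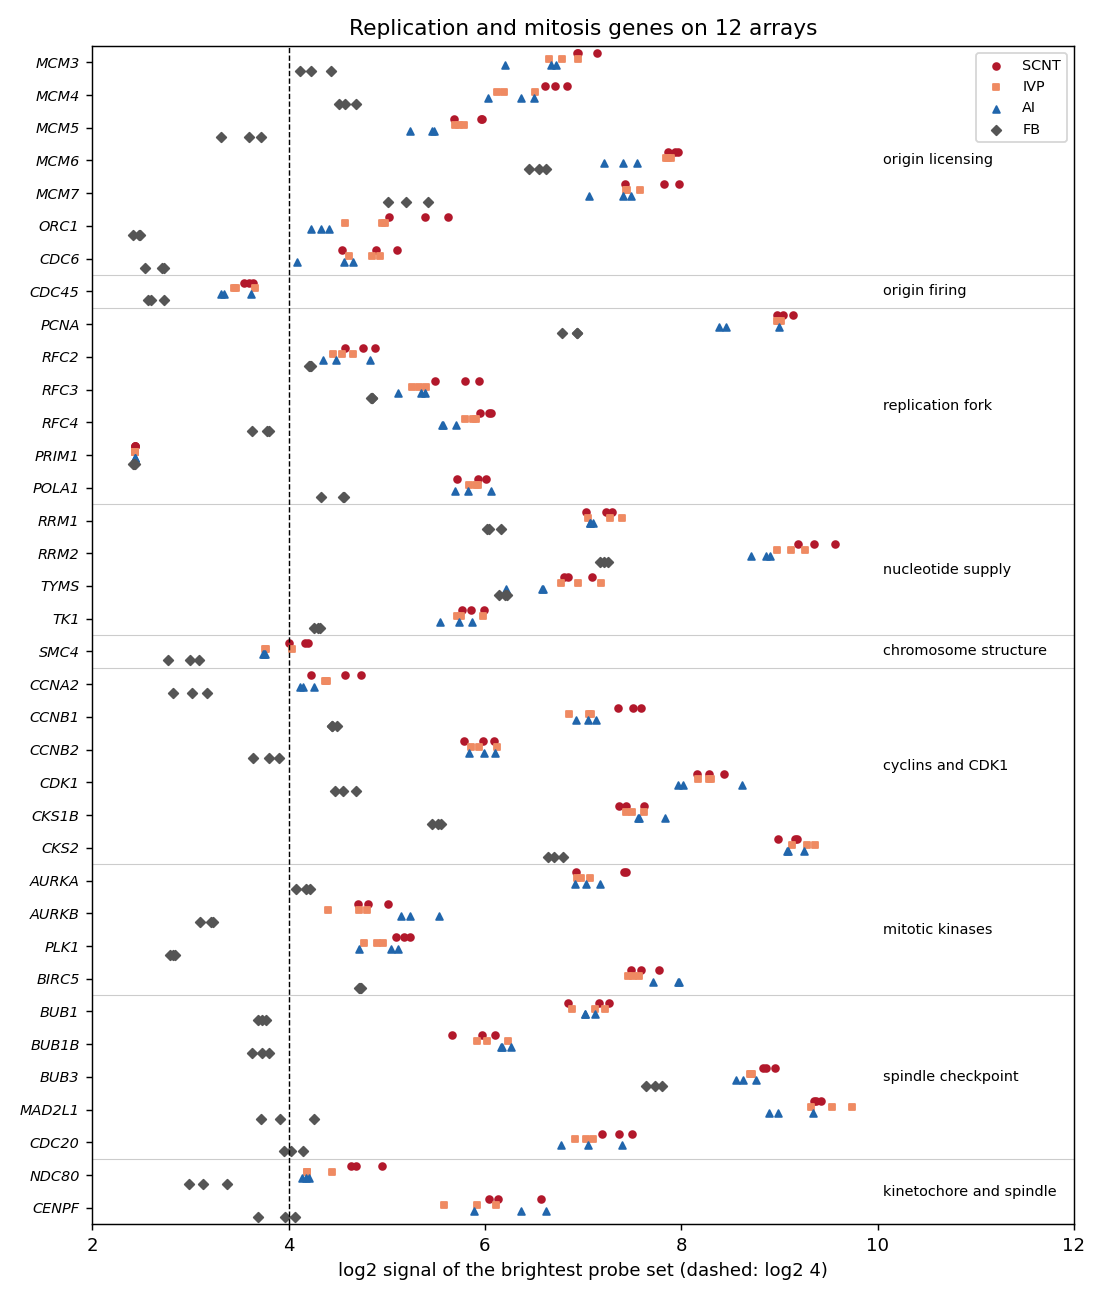
Log2 signal of the brightest probe set of each of the 36 genes on 12 arrays, with 3 symbols per group and genes ordered by role. The conceptus arrays sit close together and to the right of the FB arrays for most genes, while PRIM1 lies at the floor in all groups and CDC45 lies below log2 4 throughout.

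The first comparison asks whether conceptuses made by nuclear transfer differ from AI conceptuses in the machinery of cell division. In SCNT conceptuses 9 of the 34 genes rose and 0 fell by limma's test; at an unadjusted p under 0.05 there were 15 upward and 1 downward, beside 26.0% upward and 15.3% downward of all genes. Over all 4347 genes tested in this way 28.2% changed, 17.6% upward and 10.6% downward. The genes that rose were ORC1, MCM5, MCM6, RFC3, RFC4, RRM2, SMC4, CCNB1 and NDC80, by between 1.32-fold and 2.03-fold except SMC4, for which only a bound can be given. SMC4 passed the filter through the group where it was high and so had to differ, and without it 8 of 33 genes rose. The median difference of the 34 genes was 0.30 on the log2 scale, or 0.26 with SMC4 at its bound, beside 0.10 over all genes tested.

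Origin licensing genes lay higher in SCNT conceptuses in 7 of 7 cases by their means, and 3 of the 7 passed the test. ORC1, the largest subunit of the origin recognition complex, read 5.63, 5.39 and 5.03 in SCNT conceptuses, against 4.41, 4.23 and 4.33 in AI conceptuses. Every SCNT array lay above every AI array, and the difference was 2.03-fold (95% interval 1.56 to 2.65, adjusted p = 0.00223). MCM6, a subunit of the MCM ring, read 7.86, 7.97 and 7.94 in SCNT conceptuses, against 7.55, 7.22 and 7.40 in AI conceptuses. These arrays did not overlap either, and the difference was 1.45-fold (95% interval 1.20 to 1.75, adjusted p = 0.0098). A dimmer probe set of MCM6 read 5.22, 4.64 and 5.09 in SCNT conceptuses, against 4.70, 4.26 and 4.46 in AI conceptuses. Its groups overlapped and it did not pass, although the difference of 0.51 on the log2 scale was of similar size. MCM5, another ring subunit, read 5.96, 5.97 and 5.69 in SCNT conceptuses and 5.48, 5.23 and 5.46 in AI conceptuses, again without overlap. It was 1.39-fold higher (95% interval 1.14 to 1.71, adjusted p = 0.0212), and the call ended without SCNT 1, SCNT 2 or AI 2, with an adjusted p of at most 0.0846.

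The remaining licensing genes differed by similar amounts and did not pass. MCM3 differed by 0.47 on the log2 scale (adjusted p = 0.0510), MCM7 by 0.43 (adjusted p = 0.0857), MCM4 by 0.42 (adjusted p = 0.0748) and the loader CDC6 by 0.41 (adjusted p = 0.137). MCM3 stood just outside the threshold and passed under 6 of the alternatives tried, which are given in the closing section. MCM3 read 6.94, 7.14 and 6.94 in SCNT conceptuses and 6.67, 6.21 and 6.72 in AI conceptuses, without overlap. MCM4 read 6.83, 6.71 and 6.61 in SCNT conceptuses and 6.37, 6.03 and 6.50 in AI conceptuses, likewise without overlap. MCM7 and CDC6 overlapped between the groups.

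Among fork genes, 2 of 5 rose. RFC4, a subunit of the clamp loader, read 6.04, 5.95 and 6.06 in SCNT conceptuses, against 5.56, 5.70 and 5.58 in AI conceptuses. RFC3, another subunit, read 5.80, 5.94 and 5.49 in SCNT conceptuses, against 5.11, 5.39 and 5.35 in AI conceptuses. Neither gene overlapped between the groups, and the differences were 1.32-fold for RFC4 (95% interval 1.11 to 1.57, adjusted p = 0.0241) and 1.37-fold for RFC3 (95% interval 1.10 to 1.72, adjusted p = 0.0392). The RFC4 call held only without AI 2 when single arrays were left out, with an adjusted p of at most 0.0760. The RFC3 call ended without SCNT 1, SCNT 2, AI 1 or AI 3 (at most 0.151), and also under quantile normalization and median centring.

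PCNA, the sliding clamp, read 8.97, 9.03 and 9.13 in SCNT conceptuses, against 8.39, 8.99 and 8.46 in AI conceptuses. AI 2 lay within the SCNT range while the other AI arrays lay below it. The difference of 0.43 on the log2 scale missed the threshold (adjusted p = 0.0689), and without AI 2 it was 0.62 with an adjusted p of 0.00696. RFC2, the third clamp loader subunit measured, differed by 0.18 (adjusted p = 0.406) and POLA1, the catalytic subunit of the priming polymerase, by 0.02 (adjusted p = 0.915).

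Of the 4 nucleotide supply genes 1 rose. RRM2, the small subunit of ribonucleotide reductase, read 9.35, 9.57 and 9.19 in SCNT conceptuses, against 8.71, 8.86 and 8.90 in AI conceptuses. The groups did not overlap and the difference was 1.46-fold (95% interval 1.18 to 1.81, adjusted p = 0.0157). The call ended without SCNT 2 or AI 1, with an adjusted p of at most 0.0714. TYMS, thymidylate synthase, read 7.09, 6.84 and 6.81 in SCNT conceptuses and 6.59, 6.58 and 6.22 in AI conceptuses. It did not overlap between the groups, yet the difference of 0.45 missed the threshold (adjusted p = 0.0577). The large reductase subunit RRM1 differed by 0.11 (adjusted p = 0.586) and the salvage enzyme TK1 by 0.16 (adjusted p = 0.414).

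Among genes of mitosis and chromosome structure, 3 of 18 rose. CCNB1, the cyclin B1 partner of CDK1, read 7.59, 7.36 and 7.51 in SCNT conceptuses, against 7.13, 6.93 and 7.05 in AI conceptuses. The difference was 1.37-fold (95% interval 1.13 to 1.66, adjusted p = 0.0235), with no overlap, and the call ended without SCNT 1, SCNT 3, AI 2 or AI 3 (adjusted p at most 0.0699). NDC80, a kinetochore protein that binds microtubules, read 4.96, 4.64 and 4.69 in SCNT conceptuses, against 4.14, 4.18 and 4.21 in AI conceptuses. It was 1.50-fold higher (95% interval 1.22 to 1.85, adjusted p = 0.00918), again with no overlap. SMC4, a condensin subunit that compacts chromosomes, read 4.17 and 4.20 on SCNT 1 and SCNT 3 and stood at log2 4 on SCNT 2, with 3.74, 3.76 and 3.75 in AI conceptuses and no overlap. It was at least 1.09-fold higher (adjusted p = 0.0483) after passing the filter through its SCNT arrays, and its call ended whichever SCNT or AI array was left out (at most 0.128).

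The other 5 genes of the cyclin group ranged in difference from -0.18 for CKS1B to 0.34 for CCNA2, and none passed. CCNB2, cyclin B2, differed by -0.02 and CDK1 itself by 0.09, with adjusted p-values of 0.942 and 0.728. CDK1 read 8.43, 8.16 and 8.28 in SCNT conceptuses and 8.02, 8.62 and 7.96 in AI conceptuses, where AI 2 was the highest array of both groups. CKS2, which like CKS1B docks onto CDK complexes, differed by -0.03 (adjusted p = 0.886).

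None of the 4 genes of the mitotic kinase group, which counts BIRC5 beside the kinases AURKA, AURKB and PLK1, passed limma's test. AURKB alone had an unadjusted p under 0.05. AURKB, the kinase of the chromosomal passenger complex, read 5.01, 4.81 and 4.71 in SCNT conceptuses, against 5.24, 5.14 and 5.53 in AI conceptuses. All SCNT arrays lay below all AI arrays, by 0.46 on the log2 scale (adjusted p = 0.0527). The difference passed under quantile normalization (adjusted p = 0.0382) and median centring (adjusted p = 0.0380). It also passed with the mean of its probe sets (0.0158), without AI 2 (0.0480) and with all 12 arrays in the fit (0.0241). Its second probe set read 4.60, 4.68 and 4.46 in SCNT conceptuses and 5.10, 5.17 and 5.36 in AI conceptuses, and this one fell by 0.63 (adjusted p = 0.00841). BIRC5, survivin, a member of the same complex, differed by -0.27 (adjusted p = 0.149), AURKA by 0.22 (adjusted p = 0.312) and PLK1 by 0.21 (adjusted p = 0.268).

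No spindle checkpoint gene passed limma's test, and 0 of the 5 had an unadjusted p under 0.05. BUB1B differed by -0.29 (adjusted p = 0.160), BUB1 by 0.04, BUB3 by 0.24, MAD2L1 by 0.31 and CDC20, which activates the anaphase-promoting complex, by 0.28, with adjusted p-values of 0.872, 0.146, 0.158 and 0.235 for the last 4. CENPF, a kinetochore-associated protein, differed by -0.04 (adjusted p = 0.902). In all, 16 of the 34 genes had no overlap between SCNT and AI arrays (15 of 33 without SMC4), where 45.5% of all genes tested had none.

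With no filter on low signals 5 genes rose, since the calls of MCM5, RFC3, RRM2 and SMC4 ended. Without SCNT 1, SCNT 2 or AI 1 the number of genes that rose was 4, 5 and 5 in place of 9. ORC1, MCM6 and NDC80 kept their calls under each of the alternatives in which they were tested. Among the 19 genes above log2 4 on all 12 arrays 4 rose, beside 17.5% of the 3095 such genes on the whole array. Blood cell markers above log2 4 numbered 1 to 3 of 12 on SCNT arrays, 2 on each IVP array and 4 or 5 on AI arrays, and their summed linear signal was 203 to 579, 163 to 206 and 827 to 1207. The leukocyte gene PTPRC, the macrophage gene CD68, the T cell gene CD3E and the haemoglobin genes HBA, HBB and HBE1 were at or near the floor on all of these arrays. Others in the list moved with the groups. The leukocyte genes CD48 and ITGB2 read 2.44 to 2.48 and 3.56 to 5.15 in SCNT, 2.44 to 2.47 and 3.22 to 5.73 in IVP, and 4.86 to 6.65 and 7.91 to 9.07 in AI conceptuses. RAC2, a GTPase of blood cells, read 3.68 to 5.82 in SCNT and 4.21 to 6.21 in IVP conceptuses, against 8.59 to 8.81 in AI conceptuses, and ALAS2, an enzyme of erythroid haem synthesis, 2.46 to 2.72 and 2.54 to 2.76, against 6.10 to 7.86. IGHM, the immunoglobulin mu chain, was high on all SCNT arrays and on IVP 1, with 7.00 to 8.77 in SCNT conceptuses, 2.50 to 7.01 in IVP conceptuses and 2.48 to 5.55 in AI conceptuses. The part of these other cells in the differences was not tested.

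**Figure D2:**
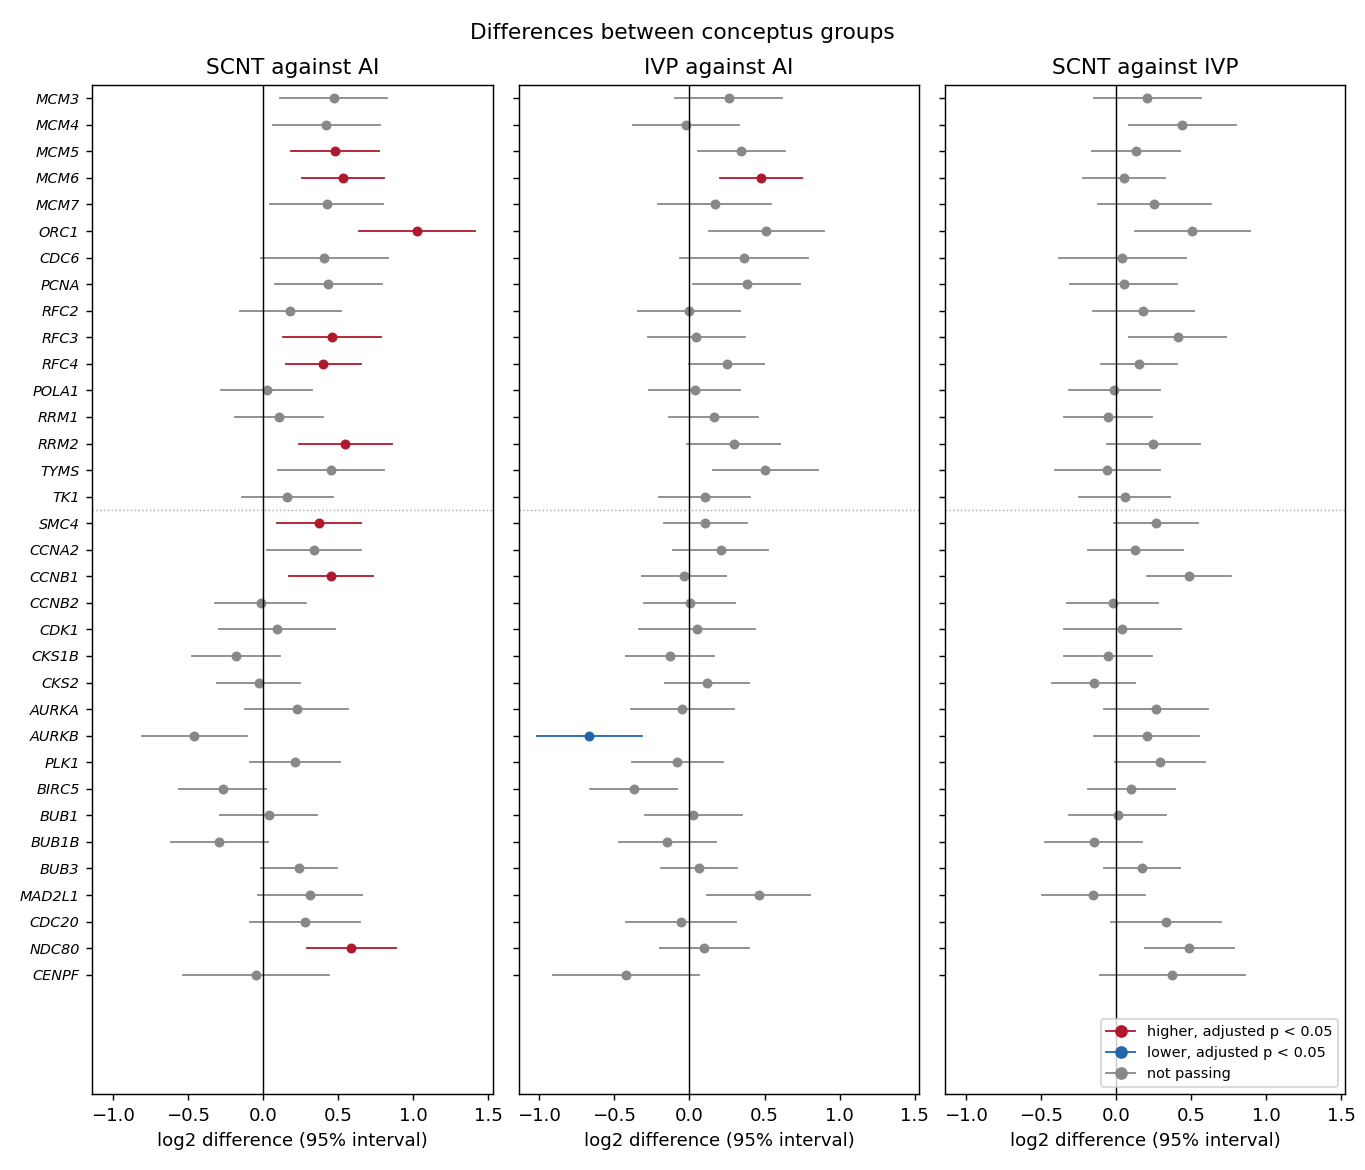
Log2 differences between conceptus groups for the 34 tested genes, with 95% intervals, in panels for SCNT against AI, IVP against AI and SCNT against IVP. Points that passed the test are red (higher) or blue (lower), 9 in the first panel, 2 in the second and 0 in the third.

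The second comparison asks the same of conceptuses from fertilization in vitro. In IVP conceptuses 1 of the 34 genes rose, MCM6, and 1 fell, AURKB. Over all genes tested 17.6% changed between these groups, 9.48% upward and 8.17% downward. The median difference of the 34 genes was 0.08, beside 0.06 over all genes. The same AI arrays serve both comparisons, so a value shared by the SCNT and IVP differences can come from those arrays.

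MCM6 read 7.86, 7.85 and 7.89 in IVP conceptuses, against 7.55, 7.22 and 7.40 in AI conceptuses. The IVP arrays lay close together and above all AI arrays, by 1.39-fold (95% interval 1.15 to 1.68, adjusted p = 0.0230). Its dimmer probe set differed by -0.10 (adjusted p = 0.795), and the mean of both did not pass. The call held only without AI 1 when single arrays were left out, with an adjusted p of at most 0.0649.

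AURKB read 4.72, 4.79 and 4.40 in IVP conceptuses, against 5.24, 5.14 and 5.53 in AI conceptuses. All IVP arrays lay below all AI arrays, and the gene was 1.59-fold lower (95% interval 1.25 to 2.02, adjusted p = 0.0163). The second probe set read 4.43, 4.81 and 4.54 in IVP conceptuses and 5.10, 5.17 and 5.36 in AI conceptuses, and fell by 0.62 on the log2 scale (adjusted p = 0.0139). The call of the brighter probe set ended without IVP 3 or AI 3 (adjusted p at most 0.0653) and with no filter on low signals. AI 2, IVP 2 and IVP 3 had the brightest spike-in controls of these groups. Without them only IVP 1 was left in its group, so calls of that fit were not read. The median difference of the 34 genes was then 0.11, where it was 0.08 with all arrays.

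ORC1 read 4.98, 4.58 and 4.95 in IVP conceptuses, above all 3 AI arrays, and the difference of 0.51 missed the threshold (adjusted p = 0.0659). TYMS missed it by less, with 6.95, 6.77 and 7.19 in IVP conceptuses and a difference of 0.51 (adjusted p = 0.0509). TYMS passed above log2 6 (adjusted p = 0.0440), after quantile normalization (0.0463) and with a trended and robust variance (0.0483). It also passed with the mean of its probe sets (0.0488), without IVP 2 (0.0441) and with all 12 arrays (0.0203). MAD2L1, which holds back the anaphase-promoting complex, differed by 0.46 (adjusted p = 0.0654) and BIRC5 by -0.37 (adjusted p = 0.0751). The other genes that did not pass ranged from -0.42 for CENPF to 0.38 for PCNA. In total 10 of 34 genes had no overlap between IVP and AI arrays, beside 38.4% of all genes tested.

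**Figure D3:**
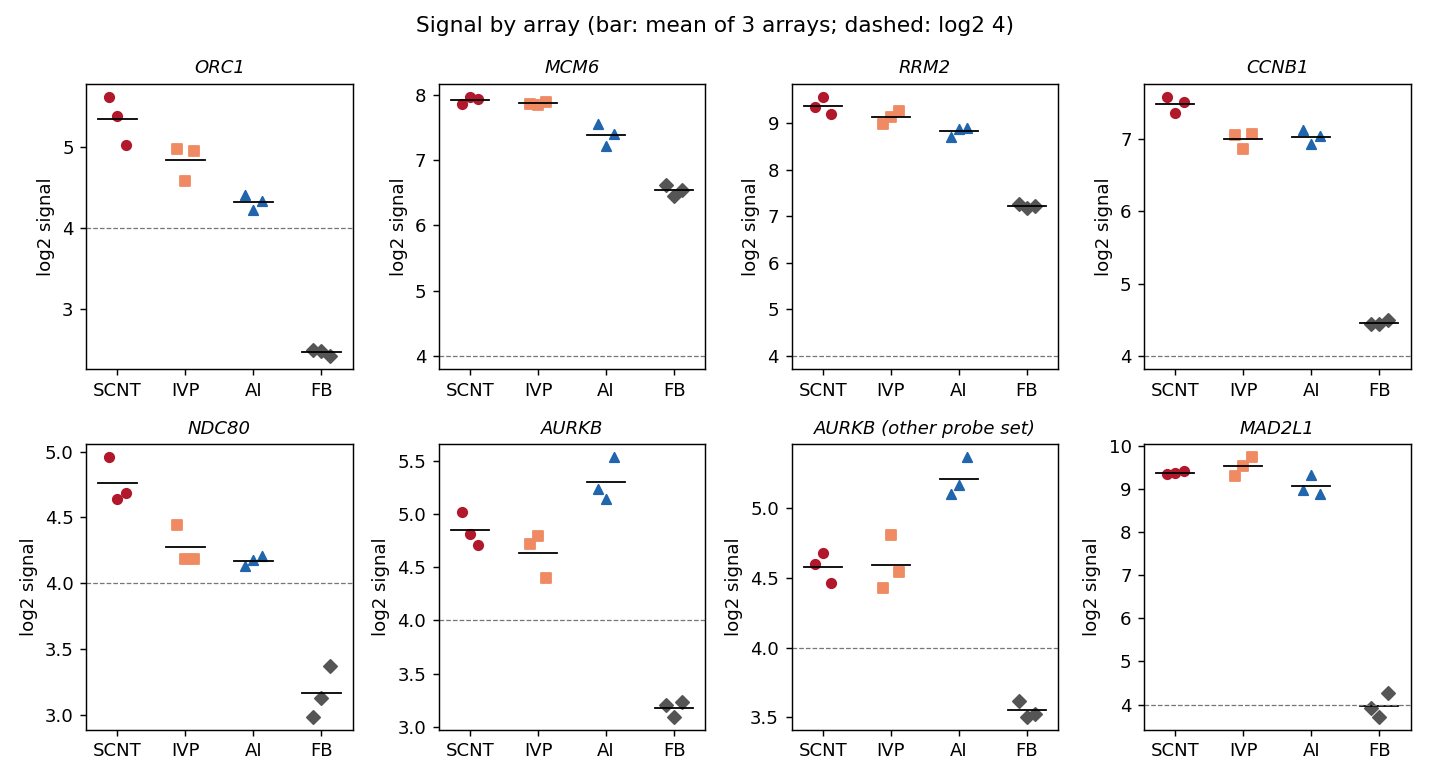
Log2 signal on each array (points, 3 per group) with the group mean (bar) for ORC1, MCM6, RRM2, CCNB1, NDC80, AURKB by each of its probe sets, and MAD2L1. In both AURKB panels the AI arrays are the highest, from 5.10 to 5.53, and in the ORC1, RRM2, CCNB1 and NDC80 panels the SCNT mean is the highest.

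Between SCNT and IVP conceptuses limma called 0 of the 34 genes, where 0.437% of all genes tested were called. At an unadjusted p under 0.05 there were 5 genes, namely CCNB1, NDC80, ORC1, RFC3 and MCM4, each higher in SCNT conceptuses. That is 14.7% of the 34, beside 6.56% upward and 4.81% downward of all genes at that threshold. After adjustment 0.092% of all genes rose and 0.345% fell. CCNB1 read 7.59, 7.36 and 7.51 in SCNT conceptuses, against 7.06, 6.86 and 7.08 in IVP conceptuses, without overlap, and differed by 0.49 (adjusted p = 0.141). With all 12 arrays in the fit CCNB1 alone was called (adjusted p = 0.0346). ORC1 differed by 0.51 (adjusted p = 0.262), NDC80 by 0.49 (adjusted p = 0.167), MCM4 by 0.44 (adjusted p = 0.287) and RFC3 by 0.41 (adjusted p = 0.281). The 95% intervals of the 34 differences reached from -0.49 to 0.90 and had a median half-width of 0.32 on the log2 scale, which is as large as many of the differences named above. Arrays did not overlap for 9 of 34 genes, beside 19.6% of all genes.

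The means followed the order SCNT, IVP, AI from high to low in 17 of 34 genes, and 33.7% of all 4347 genes had that order. In the 16 tested genes of licensing, fork and nucleotide supply, the SCNT mean exceeded the AI mean in 16 of 16 and the IVP mean exceeded it in 14 of 16. Over all genes these shares were 60.3% and 56.7%. Their median difference was 0.43 in SCNT conceptuses and 0.25 in IVP conceptuses. In the 18 genes of chromosome structure and mitosis, the SCNT mean exceeded the AI mean in 11 and the IVP mean exceeded the AI mean in 9. The medians were 0.15 and -0.02. In the separate lists described below, this contrast in SCNT conceptuses depended on the measure. The SCNT mean exceeded the AI mean in 26 of 30 other replication genes and 40 of 46 other mitosis genes, or 86.7% and 87.0%. By limma's test 23.3% and 10.9% of these genes rose, beside 17.6% of all genes. Their median differences between SCNT and AI conceptuses were 0.31 and 0.22. The IVP mean exceeded the AI mean in 24 and 34, with medians of 0.14 and 0.10. The difference between the replication and mitosis genes was not tested.

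Array by array, the median of the 16 replication genes lay above the AI mean by 0.45, 0.42 and 0.36 on the SCNT arrays and by 0.24, 0.22 and 0.26 on the IVP arrays, against 0.09, -0.13 and 0.02 on the AI arrays. The lowest SCNT array was above the highest IVP array, and the lowest IVP array was above the highest AI array. The median of the 18 mitosis and chromosome genes was 0.22, -0.07 and 0.16 on the SCNT arrays, 0.03, -0.09 and 0.01 on the IVP arrays, and -0.04, -0.04 and 0.09 on the AI arrays, with overlap among all groups. Over all genes tested the corresponding medians were 0.11, 0.10 and 0.10 on SCNT arrays, 0.08, 0.03 and 0.07 on IVP arrays, and 0.03, -0.05 and 0.04 on AI arrays. The shift of the replication genes was thus larger than the shift of all genes on each SCNT and IVP array.

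**Figure D4:**
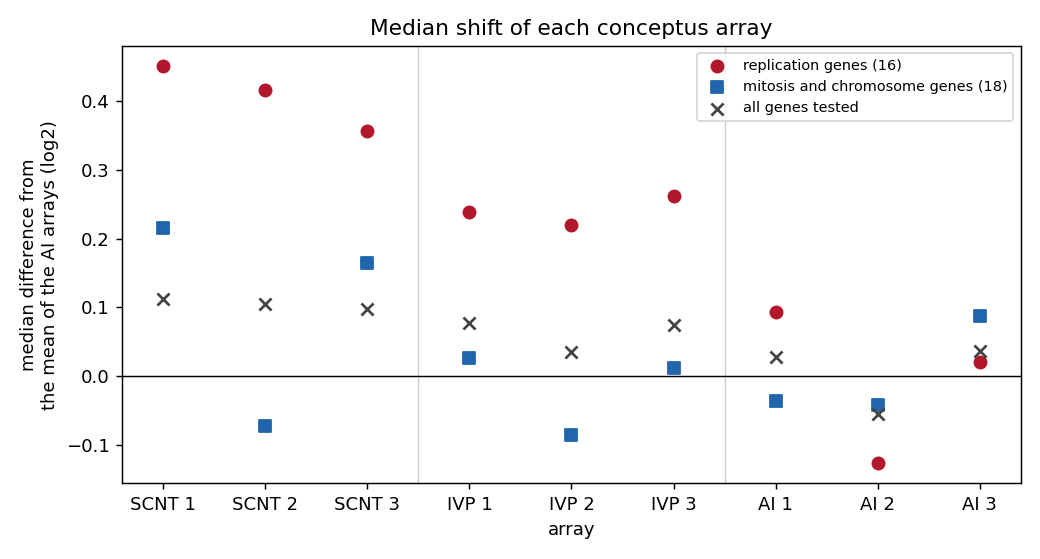
Median log2 difference from the mean of the AI arrays on each conceptus array, for the 16 replication genes (circles), the 18 mitosis and chromosome genes (squares) and all 4347 genes tested (crosses). Replication genes lie at 0.36 to 0.45 on SCNT arrays, 0.22 to 0.26 on IVP arrays and -0.13 to 0.09 on AI arrays, while the mitosis genes of the 3 groups overlap.

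The last comparisons set each conceptus group against the fibroblasts that gave the SCNT nuclei. Of the 34 genes, 34 passed the test as higher in SCNT conceptuses, 34 in IVP conceptuses and 33 in AI conceptuses, and none fell. SMC4 is among them, but its IVP, AI and FB means all lay below log2 4, where signals were not read as an order. Without it 33, 33 and 32 of 33 genes rose. Among all 4978 genes tested, 46% rose in SCNT conceptuses (78.9% changed), 44.4% in IVP conceptuses (77.6% changed) and 41.5% in AI conceptuses (75.9% changed). The median difference of the 34 genes was 2.18, 2.08 and 1.87 in the SCNT, IVP and AI groups, beside 0.23, 0.19 and 0.11 over all genes. In 14 of the 34 genes the FB mean lay below log2 4, and with these at their bounds the medians were 1.93, 1.79 and 1.61, beside 0.15, 0.11 and 0.06 over all genes treated alike. All conceptus arrays lay outside the FB range for 34, 34 and 33 genes, beside 84.5%, 83.3% and 80.3% of all genes. The 3 comparisons share the FB arrays. In such bulk samples a larger share of dividing cells cannot be told apart from more transcript per cell.

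Genes with a low FB signal passed the filter through the conceptus arrays and so had to differ, hence the 19 genes above log2 4 on all 12 arrays are given apart. Of these 19 genes, 19 rose in SCNT conceptuses, 19 in IVP conceptuses and 18 in AI conceptuses. Their median differences were 2.13, 1.91 and 1.71, and of the 3095 genes on the whole array above log2 4 on every array 46.8%, 44.9% and 40.5% rose. RNA quality moved with the comparison: the 3' minus 5' signal of GAPDH was 0.28 to 0.45 in SCNT, 0.35 to 0.89 in IVP and 0.21 to 0.38 in AI conceptuses, against 0.01 to 0.06 in FB. Its part in the differences was not tested, and tissue and culture cannot be told apart here.

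Without bounds, the largest differences in each conceptus group were those of MAD2L1, CDK1 and BUB1, followed by CDC20 or BIRC5. Checkpoint genes were not alike in this, since BUB3 differed from FB by 1.15, 0.98 and 0.92 in SCNT, IVP and AI conceptuses. MAD2L1 read 9.35, 9.37 and 9.43 in SCNT conceptuses, 9.32, 9.53 and 9.74 in IVP conceptuses, 8.98, 9.34 and 8.89 in AI conceptuses, and 3.92, 3.72 and 4.26 in FB. Every conceptus array lay more than 4 log2 units above every FB array. The gene was at least 39.3-fold higher in SCNT conceptuses (adjusted p = 1.71e-11), at least 43.6-fold in IVP conceptuses (adjusted p = 1.31e-11) and at least 31.7-fold in AI conceptuses (adjusted p = 2.99e-11). Of the FB arrays only FB 3 exceeded log2 4, so the gene passed the filter through its conceptus arrays. These p-values therefore do not count as support for a rise.

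CDK1 read 8.43, 8.16 and 8.28 in SCNT, 8.30, 8.28 and 8.17 in IVP and 8.02, 8.62 and 7.96 in AI conceptuses, against 4.55, 4.47 and 4.69 in FB. It was 13.2-fold higher in SCNT (95% interval 10.4 to 16.7), 12.8-fold in IVP and 12.4-fold in AI conceptuses, with adjusted p-values of 4.68e-10, 5.24e-10 and 5.96e-10. The conceptus groups overlapped one another and stood well apart from FB.

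BUB1, a checkpoint kinase, read 7.16, 6.85 and 7.26 in SCNT, 7.22, 6.89 and 7.13 in IVP and 7.12, 7.02 and 7.02 in AI conceptuses, against 3.77, 3.69 and 3.72 in FB, and was at least 8.52-fold, 8.45-fold and 8.30-fold higher. CDC20 read 7.50, 7.36 and 7.19 in SCNT, 7.10, 6.91 and 7.03 in IVP and 7.05, 6.78 and 7.40 in AI conceptuses, against 4.02, 4.15 and 3.95 in FB. Its folds over FB were 9.92, 7.86 and 8.18. BIRC5 read 7.77, 7.58 and 7.49 in SCNT, 7.46, 7.57 and 7.51 in IVP and 7.71, 7.97 and 7.98 in AI conceptuses, against 4.74, 4.73 and 4.72 in FB. It was 7.41-fold higher in SCNT, 6.90-fold in IVP and 8.93-fold in AI conceptuses, and its 3 FB arrays were nearly equal.

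By role, medians of the difference from FB are given with genes of low FB signal at their bounds. In SCNT, IVP and AI conceptuses they were 1.87, 1.68 and 1.39 for licensing genes, 1.40, 1.41 and 1.37 for fork genes and 1.35, 1.34 and 1.21 for nucleotide supply. The cyclin and CDK1 group had medians of 2.18, 2.27 and 2.28, the mitotic kinase group 2.03, 1.83 and 2.09, and the checkpoint group 3.09, 2.97 and 3.03. Without the bounds the licensing medians were 2.33, 2.20 and 1.85 and those of the kinase group 2.62, 2.42 and 2.51, above the 2.29, 2.37 and 2.31 of the cyclin group, so the order of the last 2 turns with the bound. SMC4, whose conceptus means were near log2 4, has no fold in IVP and AI conceptuses because both of its groups lay below log2 4 there.

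The smallest differences were in RFC2, TYMS and RFC3. TYMS read 6.15, 6.23 and 6.20 in FB, and differed from FB by 0.72 in SCNT conceptuses (adjusted p = 0.000363), 0.78 in IVP conceptuses (adjusted p = 0.000212) and 0.27 in AI conceptuses (adjusted p = 0.0854). AI 3, at 6.22, lay within the FB range, and without it the AI difference was 0.40 (adjusted p = 0.0194). RFC2 differed from FB by 0.52 in SCNT (adjusted p = 0.00267), 0.33 in IVP (adjusted p = 0.0308) and 0.34 in AI conceptuses (adjusted p = 0.0308). Its AI call ended without AI 1 or any of the 3 FB arrays (adjusted p at most 0.145), and its IVP call ended without IVP 1, IVP 3 or any FB array (at most 0.0961). RFC3 differed by 0.90, 0.48 and 0.44 in the same order of groups and passed in each.

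**Figure D5:**
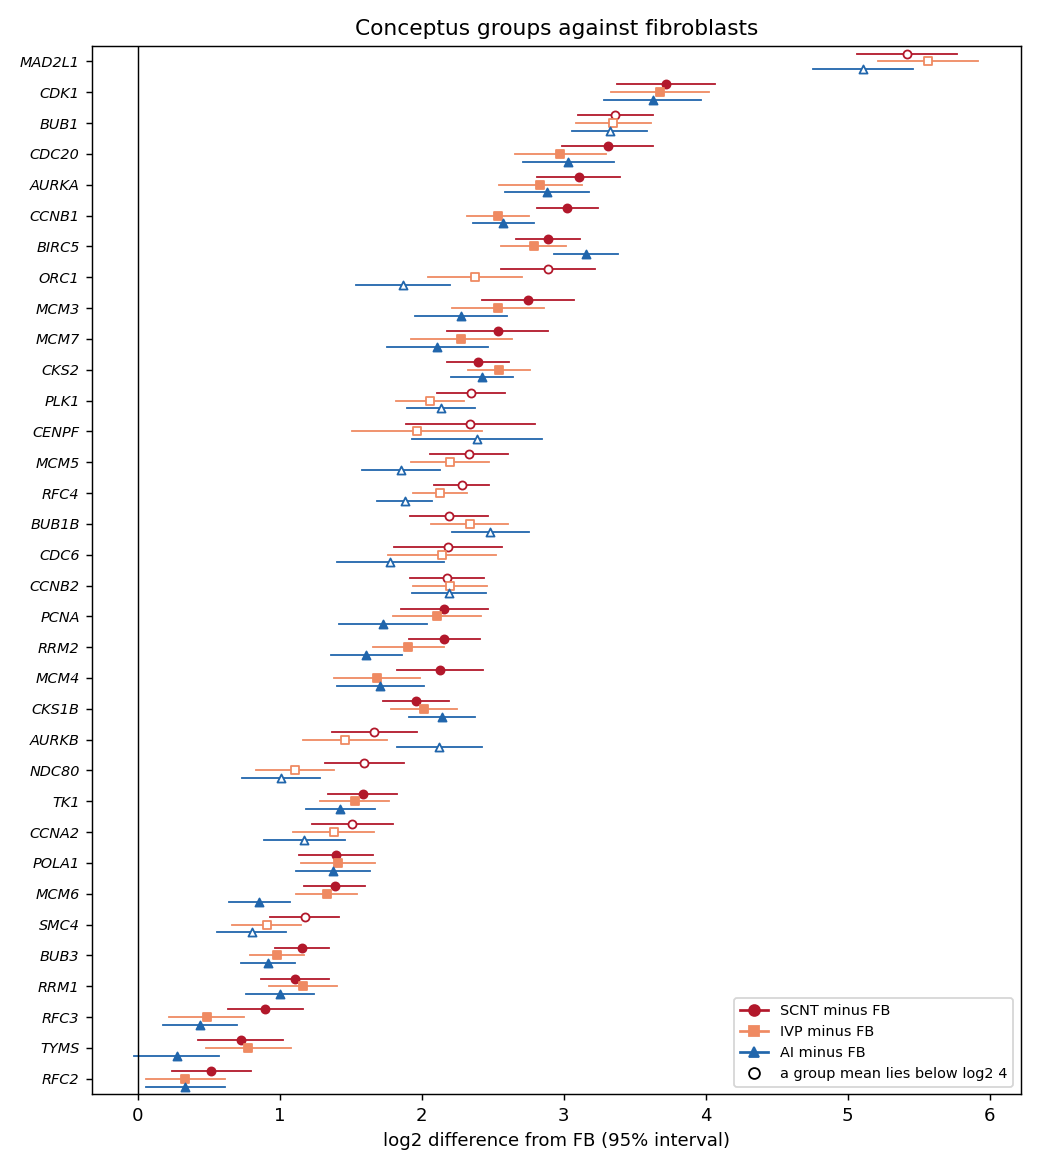
Log2 difference from FB with its 95% interval for the 34 genes in SCNT (circles), IVP (squares) and AI conceptuses (triangles), ordered by the SCNT difference. Open symbols mark genes with a group mean below log2 4. Among filled symbols the differences run from 0.27 for TYMS in AI conceptuses to 3.72 for CDK1 in SCNT conceptuses.

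Other genes of the same processes were read from separate lists. Of 30 other replication genes tested, 7 rose and 1 fell in SCNT against AI conceptuses. That is 23.3% and 3.33%, beside 17.6% and 10.6% of all genes. UHRF1, which carries DNA methylation through replication, read 4.90, 5.05 and 5.14 in SCNT conceptuses and 4.34, 4.15 and 4.36 in AI conceptuses, a 1.68-fold rise without overlap (adjusted p = 0.00322). LIG1, the ligase that joins Okazaki fragments, was 1.52-fold higher (adjusted p = 0.0417), DTYMK, thymidylate kinase, 1.45-fold (adjusted p = 0.0162) and POLD3, a polymerase delta subunit, at least 1.43-fold (adjusted p = 0.0191). For POLD3 only AI 1 of the AI arrays exceeded log2 4, so it passed the filter mainly through its SCNT and IVP arrays. The histone chaperone ASF1B fell by 0.43 on the log2 scale (adjusted p = 0.0357).

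In IVP against AI conceptuses 3 of these 30 rose and 0 fell by limma's test, with 2 lower at an unadjusted p under 0.05. The rises are 10%, close to the 9.48% of all genes, and 8.17% of all genes fell. GMNN, geminin, which blocks a second round of licensing, read 7.60, 7.57 and 7.65 in IVP conceptuses and 6.74, 7.17 and 7.15 in AI conceptuses, a 1.50-fold rise (adjusted p = 0.0172). ORC6, another origin recognition subunit, was 1.32-fold higher (adjusted p = 0.0465) and POLD1, the catalytic subunit of polymerase delta, at least 1.02-fold higher (adjusted p = 0.0428). POLD1 exceeded log2 4 only on SCNT 1, IVP 1 and IVP 3. It passed the filter through no AI array, so its p-value does not count as support for a rise.

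Of 46 other mitosis genes tested, 5 rose in SCNT against AI conceptuses and 4 in IVP against AI conceptuses. By limma's test 0 fell in either, with 0 and 2 lower at an unadjusted p under 0.05. The rises are 10.9% and 8.70%, both below the 17.6% and 9.48% of all genes. Of all genes 10.6% and 8.17% fell. CDC26, a subunit of the anaphase-promoting complex, read 6.43, 6.46 and 6.38 in SCNT conceptuses and 6.42, 6.23 and 6.24 in IVP conceptuses, against 5.83, 5.79 and 5.88 in AI conceptuses. It was 1.50-fold higher in SCNT (adjusted p = 0.00444) and 1.38-fold higher in IVP conceptuses (adjusted p = 0.0189), and on FB arrays it read 6.36, 6.36 and 6.41. ANAPC10, of the same complex, was 1.48-fold higher in SCNT (adjusted p = 0.0124) and 1.52-fold higher in IVP conceptuses (adjusted p = 0.0142). ZWILCH, a kinetochore checkpoint protein, was 1.46-fold higher in SCNT (adjusted p = 0.0212) and 1.40-fold in IVP conceptuses (adjusted p = 0.0464). CENPN, a centromere protein, rose 1.50-fold in SCNT conceptuses (adjusted p = 0.0249), and the kinetochore gene SPC24 rose 1.40-fold in IVP conceptuses (adjusted p = 0.0234).

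Among 20 cell cycle control genes tested, 5 rose and 3 fell in SCNT against AI conceptuses, and 2 rose and 3 fell in IVP against AI conceptuses. The rises are 25% and 10%, beside 17.6% and 9.48% of all genes. The falls are 15% in each, beside 10.6% and 8.17% of all genes. TFDP2, a dimer partner of the E2F factors that drive many replication genes, read 6.17, 6.04 and 5.59 in SCNT and 5.62, 5.49 and 5.22 in IVP conceptuses, against 4.28, 4.67 and 4.11 in AI conceptuses. It was 2.99-fold higher in SCNT (adjusted p = 0.000375) and 2.13-fold higher in IVP conceptuses (adjusted p = 0.0043). WEE1, the kinase that restrains CDK1, read 5.49, 5.39 and 5.20 in SCNT and 5.31, 5.37 and 5.33 in IVP conceptuses, against 5.68, 5.84 and 5.86 in AI conceptuses, below the AI arrays in every case. It was 1.35-fold lower in SCNT (adjusted p = 0.0254) and 1.37-fold lower in IVP conceptuses (adjusted p = 0.03).

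CDKN1A, the inhibitor p21, read 3.31, 3.06 and 2.58 in SCNT and 3.38, 3.38 and 3.36 in IVP conceptuses, against 4.81, 4.92 and 4.60 in AI conceptuses. It was at least 1.71-fold lower in SCNT (adjusted p = 0.000102) and in IVP conceptuses (adjusted p = 0.00066), and on FB arrays it read 7.77, 7.88 and 8.08. Among the conceptuses it passed the filter through its AI arrays alone, so it had to differ. CCND2, cyclin D2, read 6.10, 6.53 and 6.28 in SCNT and 5.86, 5.63 and 5.36 in IVP conceptuses, against 2.53, 2.59 and 2.53 in AI conceptuses. It was at least 4.93-fold higher in SCNT (adjusted p = 3.78e-07) and at least 3.07-fold higher in IVP conceptuses, and it passed the filter through those groups and not through AI. CDKN1C, the inhibitor p57, was 3.20-fold higher in SCNT conceptuses (adjusted p = 0.00127). Between SCNT and IVP conceptuses 0 genes of these 3 lists passed limma's test, beside 0.437% of all genes. At an unadjusted p under 0.05 there were 1, 2 and 4 in the replication, mitosis and control lists. That is 3.33%, 4.35% and 20%, beside 11.4% of all genes.

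Against FB, 26, 25 and 25 of the 30 other replication genes rose in SCNT, IVP and AI conceptuses, and 3, 2 and 3 fell. Of all genes 46%, 44.4% and 41.5% rose and 33%, 33.2% and 34.3% fell. FEN1, the flap nuclease, was at least 7.39-fold, 6.25-fold and 5.18-fold higher, whereas RPA1, the large subunit of the protein that coats single-stranded DNA, fell by 2.18, 2.26 and 2.31 (log2). For FEN1 only FB 2 of the FB arrays exceeded log2 4, so that gene passed the filter through its conceptus arrays. Of the 46 other mitosis genes 42, 42 and 39 rose and 2, 2 and 3 fell. A group mean lay below log2 4 in 19 of the 30 and 21 of the 46. UBE2C, the ubiquitin-conjugating enzyme of the anaphase-promoting complex, differed by 3.39, 3.27 and 3.19, while STMN1, a microtubule destabilizer, fell by 1.32, 1.04 and 1.59. Of 25 cell cycle control genes tested 12, 11 and 11 rose and 10, 9 and 11 fell. Cyclin D1, CCND1, was at least 9.35-fold lower in each conceptus group, and CDKN1C was at least 25.5-fold, 13.6-fold and 7.97-fold higher in SCNT, IVP and AI conceptuses. CCND1 passed the filter through its FB arrays alone and CDKN1C through its conceptus arrays alone, so both had to differ.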

How the data were processed

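The deposited table holds log2 signals per probe set, made by the authors from Affymetrix bovine arrays. Per the submitters' processing notes the tools were GCRMA and limma, with versions not given in the sources used here. Of 24128 probe sets 112 controls were left out, and 36.9% of values lay within 0.01 of the lowest. Symbols came from GEO's platform annotation (13292 probe sets with 1 symbol, 86 with several, 10638 with none), and 13263 matched a gene ID of RefSeq's table. The table changed 0 symbols.

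Linear models with 1 mean per group were fitted to the log2 values with limma 3.58.1 in R 4.3.3, over 6892 probe sets on the 9 conceptus arrays and, for FB comparisons, over 8164 on 12. Tests were two-sided with Benjamini and Hochberg adjustment over all probe sets of a comparison, with a threshold of 0.05. The small number of arrays limits the precision. Where a group mean lay below log2 4, arrays below 4 were set to 4 and the fold given as a bound. The procedure was tested on simulated data.

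Members and lists were chosen with earlier results of these data known. Named were all members called between conceptus groups, the largest differences from FB, the brightest uncalled members of each role and up to 4 called genes per list and direction; the smallest differences from FB and members near the threshold were added after their values were seen. Alternatives were other filters, normalizations, variance models, probe set rules, thresholds, arrays in the fit, a replicate block, and each array left out.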

Additional observations from a re-analysis of the deposited data

How the results depend on the processing

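With 9, 2 and 0 genes called in SCNT against AI, IVP against AI and SCNT against IVP, and 34, 34 and 33 in SCNT, IVP and AI against FB, no called gene changed direction under the 17 alternatives. In SCNT against AI the count was 5 with no filter, 4 above log2 6, 3 at an adjusted p under 0.01, 14 with all 12 arrays in the fit, and 4 to 8 with single arrays left out. In IVP against AI it was 1 with no filter, 4 with a trended and robust variance, 0 at an adjusted p under 0.01, 5 with all 12 arrays, and 0 to 3 with single arrays left out. In SCNT against IVP the count was 1 with all 12 arrays. Without AI 2, IVP 2 and IVP 3 only IVP 1 was left in its group, so IVP counts of that fit are not given. MCM3 was called in SCNT against AI above log2 6 (adjusted p = 0.0446), after median centring (0.0482), with a trended and robust variance (0.0489), with the mean of a gene's probe sets (0.0498), without AI 3 (0.0478) and with all 12 arrays (0.0304). The counts against FB were 21, 21 and 20 above log2 6, where fewer genes are tested, and 32 to 34 over all single omissions. Restricting to genes above log2 4 on all 12 arrays, an alternative chosen after seeing the data, left 4, 1 and 0 calls between conceptus groups and 19, 19 and 18 against FB. The cause of the other movements was not tested.

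The replicate numbers do not pair the arrays: deviations of same-numbered arrays correlated at -0.10 to 0.11 in SCNT and AI, -0.01 to 0.15 in IVP and AI, -0.15 to 0.00 in SCNT and IVP, and at most 0.21 in any pair with FB, with no pair of groups above 0.1 throughout, and 4 of 12 arrays correlated best with their own number. With the replicate block 7, 2 and 0 genes were called between conceptus groups and 34, 34 and 33 against FB. RFC4 and SMC4 were the calls lost. Signals below log2 4 were not read as an order, which limits SMC4, CDC45, PRIM1 and the FB level of 14 genes.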
